A study of Homo sapiens with 32 samples.

Results

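FOXA1, HOXB13, GATA2, SPDEF, CREB3L4, GRHL2 and ETV1 are transcription factors of the luminal prostate epithelium and of the cancers that arise from it. They were chosen by name, as 7 of the 29744 genes in the deposited table, and all 7 were present there under their own symbols. FOXA1 is a pioneer factor that opens chromatin, and with GATA2 and the homeobox protein HOXB13 it prepares prostate enhancers for the androgen receptor, the hormone-activated factor that drives luminal genes. SPDEF is an ETS factor of secretory epithelium, GRHL2 is a grainyhead factor that maintains epithelial junction genes, and CREB3L4 (also called AIbZIP) is a bZIP factor held in the endoplasmic reticulum (ER) membrane and abundant in prostate. ETV1 is an ETS factor that gene rearrangements switch on in a subset of prostate cancers, the line LNCaP among them. The androgen receptor gene itself is not analysed here.

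The study asked what ER stress and MOCOS loss do to gene expression in 2 human prostate cancer lines, LNCaP, which grows in response to androgen, and its descendant C4-2B, which grows without it. Thapsigargin (TG) blocks the calcium pump of the ER and so causes ER stress, and MOCOS is the enzyme that completes the molybdenum cofactor of xanthine dehydrogenase and aldehyde oxidase. In each line there were 4 groups of 4 libraries: MOCOS siRNA (siMOCOS) with TG, control siRNA (siCTRL) with TG, MOCOS siRNA with vehicle, and control siRNA with vehicle, 32 libraries in all. Polyadenylated RNA was read in strand-specific libraries. All cells grew in medium with fetal bovine serum. The siMOCOS groups pool 2 siRNAs, because the table does not say which column holds which siRNA. By the sample titles each such group has 2 libraries of each siRNA, so its spread mixes siRNA and replicate differences. No source used here gives the TG dose or exposure time. The study calls the replicates biological, and p-values here measure the spread between these libraries. Each line is a single established tumour line, so the libraries of a group are repeats of 1 line and not of different tumours.

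Library totals ran from 7507226 to 27088570 counts. The target of the knockdown, MOCOS, was lower in all siMOCOS libraries than in any siCTRL library when line and drug were matched, with 3.42 ± 1.06 CPM in C4-2B siMOCOS cells and 31.5 ± 2.05 CPM in C4-2B siCTRL cells (SD, n = 4 each). MOCOS itself rose with TG, to 96.1 ± 5.11 CPM in LNCaP siCTRL TG against 24.3 ± 0.68 CPM in LNCaP siCTRL, and to 89.4 ± 2.68 CPM in C4-2B siCTRL TG (n = 4 each). In siMOCOS cells it also rose with TG, to 14.8 ± 4.38 CPM in C4-2B and 14.3 ± 4.11 CPM in LNCaP. The LNCaP siMOCOS level without TG was 3.75 ± 0.296 CPM (SD, n = 4 each). The luminal keratins KRT8 (56.5 to 321 CPM) and KRT18 (155 to 422 CPM) were present in all libraries. KRT19, also on the luminal list, was low (0 to 4.38 CPM). Of 12 luminal epithelial markers, 0 or 1 averaged under 1 CPM in each group. The basal keratin KRT5 did not exceed 0.194 CPM and the neuroendocrine marker CHGA did not exceed 0.0484 CPM. Of 12 neuroendocrine markers, 9 averaged under 1 CPM in every group, and the summed level of all 12 lay between 27.6 and 94.1 CPM, mostly from ONECUT2. Of 12 basal and mesenchymal markers, 6 to 8 were under 1 CPM in each group, and the sum was set by FN1 (140 to 553 CPM). Of 10 stromal, immune, endothelial and blood markers in the table, 7 were under 1 CPM in every group and COL1A2 was at 0 in all 32 libraries. CPM (read counts relative to sequencing depth) use library sizes adjusted by TMM factors over all 32 libraries. They are not divided by gene length, so levels are compared between libraries of 1 gene and not between genes. In bulk RNA, fewer cells of a type and less RNA per cell cannot be told apart. In 6 siCTRL libraries the deviations of genes from their group mean followed transcript length most strongly, with r between -0.319 and -0.273 in 3 and between 0.25 and 0.371 in the other 3: C4-2B siCTRL replicates 2 and 4, C4-2B siCTRL TG replicates 2 and 3 and LNCaP siCTRL TG replicates 2 and 4. Results of the 7 factors that lost their call without these 6 are given both ways. Single genes of the other lists were not checked in this way.

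Known elements of the ER stress response were sought in the DNA just before gene starts, which does not test why genes fell with TG. The stretches before the starts of FOXA1, GATA2 and SPDEF, genes that fell, are shown. Each is the 250 bases before an annotated start on the minus strand, from the RefSeq promoter table of GRCh38.p14. The FOXA1 window is chr14:37595250-37595499, within the gene's span of chr14:37589984-37596059 in GENCODE v29. The GATA2 window is chr3:128488531-128488780, within chr3:128479427-128493185. The SPDEF window is chr6:34556330-34556579, at the start of chr6:34537802-34556333. Capitals mark CCAAT and CCACG, the 2 ends of the ER stress element, on either strand, so that ATTGG and CGTGG are the same ends read from the other strand.
FOXA1: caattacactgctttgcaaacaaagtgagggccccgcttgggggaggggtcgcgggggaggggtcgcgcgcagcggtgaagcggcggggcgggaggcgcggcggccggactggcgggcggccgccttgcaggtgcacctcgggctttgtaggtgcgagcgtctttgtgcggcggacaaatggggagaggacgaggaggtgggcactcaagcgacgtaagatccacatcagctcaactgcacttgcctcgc
GATA2: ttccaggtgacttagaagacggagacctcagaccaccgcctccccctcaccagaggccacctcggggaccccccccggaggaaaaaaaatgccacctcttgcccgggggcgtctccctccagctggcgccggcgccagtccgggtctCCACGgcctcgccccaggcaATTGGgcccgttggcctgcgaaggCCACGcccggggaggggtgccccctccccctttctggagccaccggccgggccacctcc
SPDEF: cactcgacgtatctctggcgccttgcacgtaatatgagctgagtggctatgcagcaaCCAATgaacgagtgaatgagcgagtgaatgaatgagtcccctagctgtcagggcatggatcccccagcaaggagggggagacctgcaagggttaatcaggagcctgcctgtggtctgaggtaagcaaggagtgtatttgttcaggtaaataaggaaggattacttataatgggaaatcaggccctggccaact
The FOXA1 stretch held neither end, the GATA2 stretch held 1 CCAAT and 2 CCACG, and the SPDEF stretch held 1 CCAAT. Another GATA2 window, chr3:128493202-128493451, is not shown and held neither end. Among 35116 such windows of all genes, 32% held CCAAT and 33.5% held CCACG on either strand, so single ends are common. The whole element, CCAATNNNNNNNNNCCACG, was in 0.074% of all windows. The table held 11 windows for 5 of the 7 genes (not HOXB13 or GRHL2), and none of the 11 held that element on either strand. None held the unfolded protein response element TGACGTGG, which itself contains CGTGG (in 0.612% of all windows), the ATF4 composite TGATGNAAT (0.888%), the cyclic AMP response element TGACGTCA (1.65%) or the forkhead motif TGTTTAC (2.98%). The GATA motif AGATAA (9.17%), the ETS motif CCGGAAG (8.52%) and the grainyhead motif AACCNGTT (1.49%), searched later on both strands, also had no match there. This says only that those letters are not in these windows.

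TG lowered the factors that work beside the androgen receptor. In siCTRL cells of both lines HOXB13, GATA2, SPDEF and FOXA1 fell, with HOXB13 at the largest log2 change. GRHL2 fell slightly in LNCaP, ETV1 rose in LNCaP, and CREB3L4 was not called in either line. In LNCaP 5 of the 7 genes were called lower and 1 higher at an adjusted p under 0.05, where 25.1% of the 13806 genes tested were called lower and 24.6% higher. In C4-2B 4 of the 6 tested were called lower and 0 higher, where 19.3% of 14127 genes were called lower and 21.2% higher. ETV1 did not pass the filter on low counts in C4-2B and was not tested there. The median log2 change of the members tested was -0.467 in LNCaP and -0.753 in C4-2B, beside -0.0379 and -0.00911 over all genes tested. Only the LNCaP median includes ETV1, which rose, so these 2 medians cover different genes and do not compare the lines. The same libraries showed the ER stress response itself: all 8 ER stress indicators rose in both lines, among them DNAJB9, an ER chaperone partner, with a log2 change of 2.68 in LNCaP and 2.27 in C4-2B.

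HOXB13, a homeobox factor that marks prostate lineage (chr17:48724763-48729178, minus strand, GENCODE v29 on GRCh38), had 71, 77.9, 69.5 and 57.2 CPM in the 4 LNCaP siCTRL TG libraries, against 221, 258, 252 and 237 CPM in LNCaP siCTRL. In C4-2B it had 111, 123, 131 and 107 CPM in siCTRL TG, against 188, 265, 268 and 266 CPM in siCTRL. In both lines every TG library lay below every library without TG. The fall was larger than the spread in LNCaP (log2 change -1.81, SE 0.127, adjusted p = 3.48e-09) and in C4-2B (log2 change -1.07, SE 0.145, adjusted p = 1.94e-05). It was called in all 8 fits that left out 1 library in each line, with the highest adjusted p at 7.75e-08 in LNCaP and 0.000172 in C4-2B.

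GATA2, a zinc finger factor that binds androgen-responsive enhancers, had 39.8, 38, 33.4 and 34.1 CPM in LNCaP siCTRL TG libraries, against 95.9, 118, 117 and 84.7 CPM in LNCaP siCTRL. The LNCaP groups did not overlap (log2 change -1.51, SE 0.188, adjusted p = 3.24e-06). In C4-2B it had 73.2, 74.5, 52.9 and 70.6 CPM in siCTRL TG, against 98.1, 97.7, 165 and 155 CPM in siCTRL. These groups did not overlap either, but the C4-2B controls split into 2 low and 2 high libraries (log2 change -0.93, SE 0.232, adjusted p = 0.0042). Replicates 1 to 4 of C4-2B siCTRL differed in how their gene levels depended on GC content: the deviation of each gene from its group mean correlated with the GC content of its transcript at -0.528, -0.132, 0.34 and 0.424. GATA2, whose longest transcript has a GC content of 59.7%, was high in the libraries with positive values. A correction for GC content and length, chosen after the data were seen, gave a log2 change of -0.73 for GATA2 in C4-2B (adjusted p = 0.000506). It was fitted to each library's deviations from the mean of all libraries in the fit. It therefore also takes out any difference between groups that follows GC content or length, and whether such differences are technical was not tested.

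SPDEF, the ETS factor of secretory cells and the member richest in GC (64.6%), had 7.09, 6.62, 5.86 and 6.46 CPM in LNCaP siCTRL TG, against 11.1, 18.6, 18.7 and 17.3 CPM in LNCaP siCTRL. All 4 LNCaP TG libraries were below all 4 controls (log2 change -1.33, SE 0.193, adjusted p = 1.78e-05). In C4-2B it had 12.4, 13.6, 11.3 and 11.9 CPM in siCTRL TG, against 13.2, 20.8, 28.6 and 28.5 CPM in siCTRL. There the highest TG library passed the lowest control, replicate 1, so the groups overlapped (log2 change -0.89, SE 0.261, adjusted p = 0.0116). The C4-2B call was lost without siCTRL replicate 4 (adjusted p = 0.0538) and kept with the GC and length correction (log2 change -0.54, adjusted p = 0.00197).

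FOXA1, the pioneer factor, had 393, 327, 358 and 302 CPM in LNCaP siCTRL TG, against 474, 457, 394 and 586 CPM in LNCaP siCTRL. In C4-2B it had 262, 238, 282 and 229 CPM in siCTRL TG, against 389.8, 463, 345 and 345 CPM in siCTRL. In neither line did the TG and vehicle libraries overlap, though in LNCaP the highest TG library was within 1 CPM of the lowest control. FOXA1 fell in LNCaP (log2 change -0.47, SE 0.113, adjusted p = 0.00223) and in C4-2B (log2 change -0.61, SE 0.113, adjusted p = 0.000382), by less than HOXB13 and GATA2. Without the 6 libraries named above, the falls of FOXA1 in LNCaP (adjusted p = 0.0924), of GATA2 in C4-2B (0.11) and of SPDEF in C4-2B (0.232) were no longer called, with only 2 libraries left in each affected group.

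CREB3L4 (chr1:153967534-153974363, plus strand), whose relatives CREB3 and ATF6 are cut free of the ER membrane to act in the nucleus, ranged from 51.7 to 61.2 CPM in LNCaP siCTRL TG and from 56.0 to 65.2 CPM in LNCaP siCTRL. In C4-2B it ranged from 61.3 to 74.4 CPM in siCTRL TG and from 66.5 to 74.8 CPM in siCTRL. The groups overlapped in both lines and the changes did not pass the test. The 95% interval of its log2 change was -0.35 to 0.18 in LNCaP (adjusted p = 0.594) and -0.27 to 0.26 in C4-2B (adjusted p = 0.967). CREB3L4 overlaps the gene AL358472.7 on the opposite strand over its whole length of 6830 bases in GENCODE v29, and no source used here states whether the counting used strand. FOXA1 overlaps TTC6 by 213 bases and GATA2 overlaps its antisense gene GATA2-AS1 by 3974 bases in the same way, and GRHL2 overlaps 1 antisense gene and 2 processed pseudogenes by 68 to 847 bases.

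GRHL2, the keeper of epithelial junctions, had 106, 112, 108 and 114 CPM in LNCaP siCTRL TG, against 141, 130.4, 132 and 132 CPM in LNCaP siCTRL. The spread was small and the groups did not overlap (log2 change -0.28, SE 0.0814, adjusted p = 0.00926), although the call was lost without siCTRL TG replicate 1 (adjusted p = 0.0815) or replicate 3 (0.0763), without the 6 libraries named above (0.0613) and with no filter on low counts (0.0533). In C4-2B it averaged 157 ± 27.1 CPM in siCTRL TG and 177 ± 26.1 CPM in siCTRL (SD, n = 4 each), groups that overlapped and did not differ beyond their spread (log2 change -0.18, SE 0.133, adjusted p = 0.29).

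ETV1, the rearranged ETS factor (chr7:13891228-13991425, minus strand), had 462, 402, 452 and 462 CPM in LNCaP siCTRL TG, against 329.8, 315, 311 and 357 CPM in LNCaP siCTRL. It rose while the other called members fell, and the groups did not overlap (log2 change 0.44, SE 0.114, adjusted p = 0.00373). ETV1 is the member poorest in GC (38.1%), and with the GC and length correction the log2 change was 0.22 (adjusted p = 0.078), which was not called. It was also not called in the fit of both lines together (adjusted p = 0.0657).

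**Figure D1:**
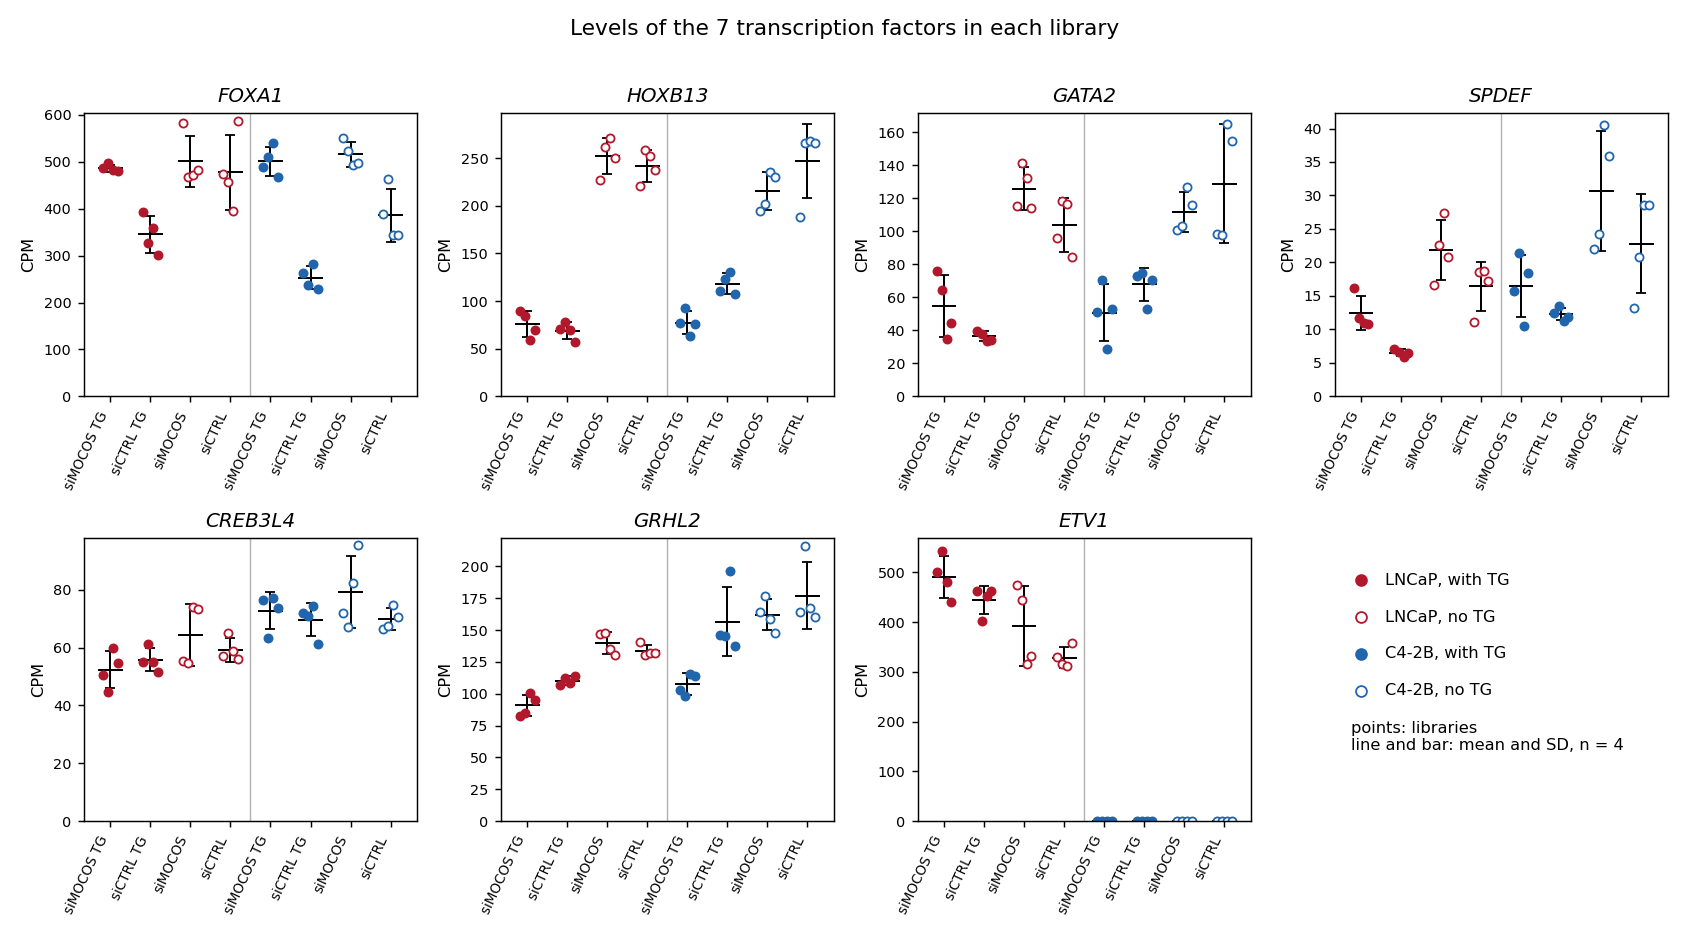
Levels of the 7 factors in CPM (linear axes from 0) in each of the 32 libraries, with the mean and SD of each group of 4. HOXB13, GATA2 and SPDEF are low in TG groups of both lines, FOXA1 is lowest in siCTRL TG cells, and ETV1 lies between 311 and 543 CPM in LNCaP and at most at 0.614 CPM in C4-2B.

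MOCOS siRNA went with more FOXA1 in cells under TG. FOXA1 was called higher in siMOCOS TG than in siCTRL TG cells of both lines, and GRHL2 was called lower in both. HOXB13 was called lower in C4-2B, and GATA2 and SPDEF were called higher in LNCaP. In LNCaP 3 of 7 members were called higher and 1 lower, where 11.7% of genes were called higher and 10.2% lower. In C4-2B 1 of 6 was called higher and 2 lower, where 9.21% of genes were called higher and 7.6% lower. The median log2 change of the members tested was 0.166 in LNCaP, where ETV1 is included, and -0.148 in C4-2B, where it is not. Over all genes it was 0.0116 and 0.0136.

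FOXA1 had 489, 510.5, 539.6 and 467 CPM in C4-2B siMOCOS TG libraries, against 262, 238, 282 and 229 CPM in C4-2B siCTRL TG. The lowest siMOCOS TG library was well above the highest siCTRL TG library (log2 change 1.01, SE 0.114, adjusted p = 6.53e-06). In LNCaP it had 487, 497, 482 and 480.5 CPM in siMOCOS TG, against 393, 327, 358 and 302 CPM in siCTRL TG. Here too the groups did not overlap (log2 change 0.52, SE 0.113, adjusted p = 0.00364). These comparisons share their siCTRL TG libraries with the TG comparisons above, so the low siCTRL TG level enters both. Over the 8 groups, FOXA1 means ran from C4-2B siMOCOS (516 ± 26.7 CPM) through C4-2B siCTRL (386 ± 55.6 CPM) to LNCaP siCTRL TG (345 ± 39.6 CPM; SD, n = 4 each) with each group overlapping the next. C4-2B siCTRL TG (253 ± 24.2 CPM) lay alone below them. The call in C4-2B held in every fit run, and the call in LNCaP was lost only without the 6 libraries named above (adjusted p = 0.086).

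HOXB13 had 76.8, 93.1, 63.5 and 76.1 CPM in C4-2B siMOCOS TG, against 111, 123, 131 and 107 CPM in C4-2B siCTRL TG. It was lower with the knockdown, without overlap (log2 change -0.58, SE 0.144, adjusted p = 0.00939). The call was lost without knockdown columns 3 and 4 (adjusted p = 0.0545) and without the 6 libraries named above (0.137). In LNCaP it averaged 75.6 ± 13.8 CPM in siMOCOS TG and 68.9 ± 8.63 CPM in siCTRL TG (SD, n = 4 each), overlapping groups with no call (log2 change 0.16, SE 0.124, adjusted p = 0.374); without knockdown columns 3 and 4 it was called higher there (log2 change 0.32, adjusted p = 0.0394).

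GRHL2 had 82.5, 85, 100.5 and 95.2 CPM in LNCaP siMOCOS TG, against the 106, 112, 108 and 114 CPM of LNCaP siCTRL TG. In C4-2B it had 103, 98, 116 and 114 CPM in siMOCOS TG, against 146, 146, 197 and 138 CPM in siCTRL TG. All siMOCOS TG libraries were below all siCTRL TG libraries in both lines, and GRHL2 fell in LNCaP (log2 change -0.26, SE 0.0814, adjusted p = 0.0312) and in C4-2B (log2 change -0.51, SE 0.134, adjusted p = 0.0127). Both calls were lost without the 6 libraries (adjusted p = 0.135 in LNCaP and 0.064 in C4-2B) and without knockdown columns 1 and 2 (0.138 in LNCaP and 0.101 in C4-2B). The LNCaP call was also lost without siCTRL TG replicate 4 (0.0519), siMOCOS TG replicate 1 (0.0719) or siMOCOS TG replicate 2 (0.065), with no filter (0.069) and in the fit of both lines (0.0684).

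SPDEF had 16.2, 11.7, 11 and 10.8 CPM in LNCaP siMOCOS TG, against 7.09, 6.62, 5.86 and 6.46 CPM in LNCaP siCTRL TG, with no overlap. It rose with the knockdown there (log2 change 0.96, SE 0.191, adjusted p = 0.00188), a call that the GC and length correction removed (log2 change 0.41, adjusted p = 0.0632). In C4-2B it had 15.7, 21.4, 10.6 and 18.4 CPM in siMOCOS TG and the groups overlapped (log2 change 0.46, SE 0.259, adjusted p = 0.257). There the same correction gave a call (log2 change 0.49, adjusted p = 0.00746).

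GATA2 had 75.8, 64.2, 34.5 and 44.6 CPM in LNCaP siMOCOS TG, a spread of over 2 times within the group, and overlapped siCTRL TG (log2 change 0.62, SE 0.185, adjusted p = 0.0246). Its order over these replicates was the order of their correlation with GC content (0.322, 0.0838, -0.285 and -0.113 for replicates 1 to 4). The call was lost with the GC and length correction (adjusted p = 0.137), without the 6 libraries named above (0.147), in the fit of both lines (0.0621), without columns 1 and 2 (0.628) and without any one of siMOCOS TG replicate 1 (0.141), siMOCOS TG replicate 2 (0.0958), siCTRL TG replicate 3 (0.0896) or siCTRL TG replicate 4 (0.0832). In C4-2B siMOCOS TG it had 50.9, 70.8, 28.6 and 53 CPM and was not called (log2 change -0.38, SE 0.231, adjusted p = 0.288). The GC correlations of those C4-2B replicates (-0.0755, 0.428, -0.48 and 0.151) had the same order as GATA2 and as SPDEF. CREB3L4 and, in LNCaP, ETV1 were not called: the log2 change of CREB3L4 was -0.066 in LNCaP and 0.088 in C4-2B, and that of ETV1 was 0.17 (adjusted p = 0.307). With the GC and length correction ETV1 was called higher there (log2 change 0.31, adjusted p = 0.04).

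**Figure D2:**
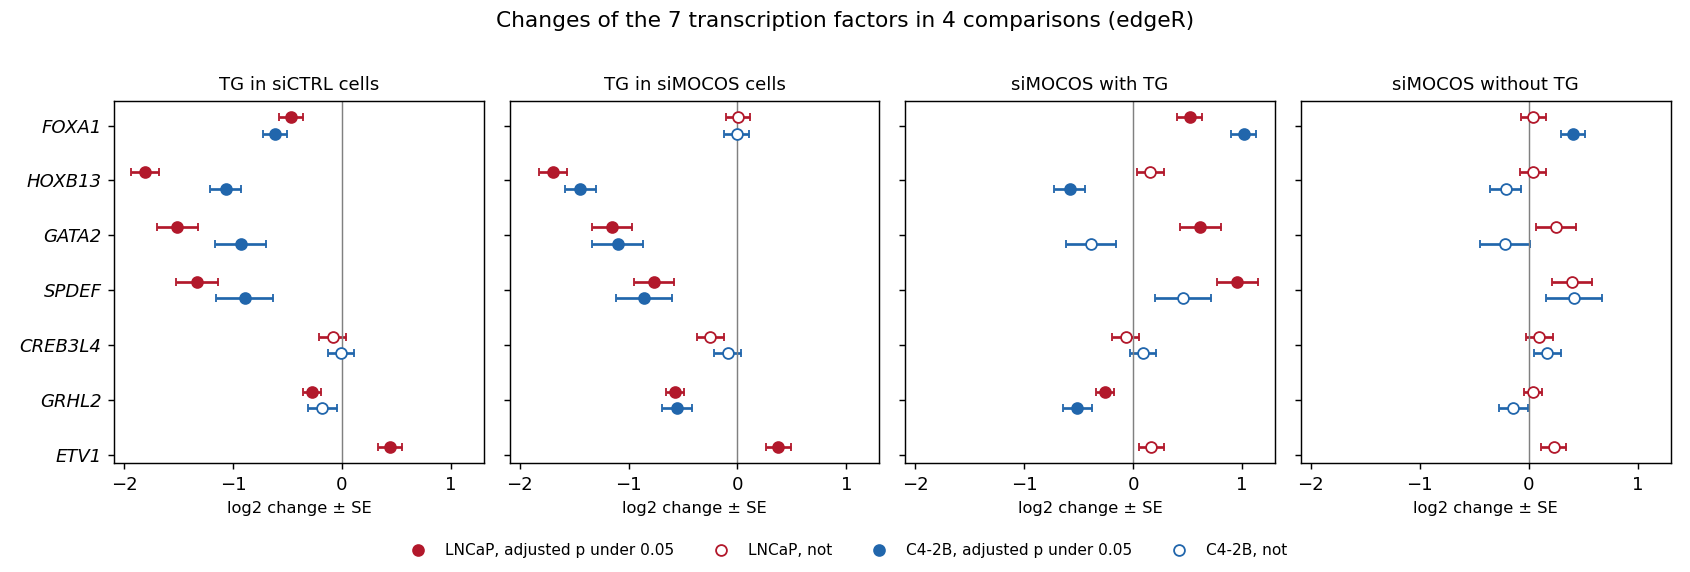
Log2 changes (edgeR, ± SE) of the 7 factors in 4 comparisons, LNCaP above C4-2B for each gene; filled points passed an adjusted p under 0.05, and ETV1 was not tested in C4-2B. The 3 genes HOXB13, GATA2 and SPDEF lie left of 0 with TG in both siRNA conditions, while FOXA1 does so in siCTRL cells and lies at 0 in siMOCOS cells.

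Without TG the knockdown left most of these factors near their control levels. In LNCaP 0 of 7 members were called by edgeR, where 6% of genes were called higher and 9.73% lower. SPDEF alone had an unadjusted p under 0.05 (0.0463, log2 change 0.40), as had 4256 of the 13806 genes tested. DESeq2 and limma voom each also called 0 members. The GC and length correction called 1, ETV1 (log2 change 0.37, adjusted p = 0.0208). In C4-2B 1 of 6 was called higher and 0 lower, where 9.09% of genes were called higher and 8.14% lower. Both shares are near those of the members. The other 5 tested in C4-2B overlapped between the groups, with log2 changes from -0.21 (GATA2) to 0.42 (SPDEF). SPDEF was called higher there with the GC and length correction (log2 change 0.51, adjusted p = 0.00536). The called gene was FOXA1, with 551, 523, 493 and 497 CPM in C4-2B siMOCOS, against 389.8, 463, 345 and 345 CPM in C4-2B siCTRL. The groups did not overlap (log2 change 0.41, SE 0.113, adjusted p = 0.0182). The call was lost without siCTRL replicate 3 (adjusted p = 0.071), siMOCOS replicate 1 (0.0552) or knockdown columns 1 and 2 (0.12). In LNCaP FOXA1 averaged 501 ± 54.5 CPM in siMOCOS and 478 ± 80 CPM in siCTRL (SD, n = 4 each), which overlapped, and the 95% interval of its log2 change was -0.20 to 0.29.

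Some members had different means in knockdown columns 1 and 2 and in columns 3 and 4. ETV1 averaged 460 CPM in columns 1 and 2 and 324 CPM in columns 3 and 4 of LNCaP siMOCOS, with no overlap. In C4-2B siMOCOS, SPDEF averaged 23.1 CPM in columns 1 and 2 and 38.2 CPM in columns 3 and 4, and CREB3L4 averaged 69.5 and 89 CPM in the same 2 pairs, also with no overlap. In LNCaP siMOCOS TG, GATA2 averaged 70 CPM in columns 1 and 2 and 39.5 CPM in columns 3 and 4. FOXA1 was close between the pairs in both TG groups, at 500 and 503 CPM in C4-2B and 492 and 481 CPM in LNCaP. With 2 libraries in each pair a lack of overlap says little, as those close FOXA1 pairs in LNCaP did not overlap either. No source used here states whether these pairs are the 2 siRNAs. In C4-2B siMOCOS the correlation with GC content, taken as above, was -0.364 and -0.241 in columns 1 and 2. It was 0.329 and 0.269 in columns 3 and 4. In LNCaP siMOCOS it was -0.349, 0.0977, 0.277 and -0.0132 in columns 1 to 4. The part of GC content in these differences was not tested. Without columns 3 and 4, ETV1 was called higher in LNCaP siMOCOS (log2 change 0.51, adjusted p = 0.000782), and without columns 1 and 2, SPDEF (0.59, 0.0405) and CREB3L4 (0.34, 0.0227) were.

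The effect of TG in siMOCOS cells was measured in libraries that the siCTRL comparison does not use. HOXB13, GATA2, SPDEF and GRHL2 were called lower in both lines, and FOXA1 in neither. In LNCaP 4 of 7 were called lower and 1 higher, where 21.9% of genes were called lower and 25.1% higher. In C4-2B 4 of 6 were called lower and 0 higher, where 17.2% of genes were called lower and 20.7% higher. HOXB13 averaged 75.6 ± 13.8 CPM in LNCaP siMOCOS TG and 253 ± 18.9 CPM in LNCaP siMOCOS (log2 change -1.69, SE 0.126, adjusted p = 7.42e-09). It averaged 77.4 ± 12.1 CPM in C4-2B siMOCOS TG and 215 ± 20.3 CPM in C4-2B siMOCOS (log2 change -1.44, SE 0.146, adjusted p = 8.77e-07; SD, n = 4 each). No TG library overlapped a vehicle library for HOXB13, GATA2, SPDEF or GRHL2.

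GATA2 fell, with log2 changes of -1.15 in LNCaP (adjusted p = 5.87e-05) and -1.10 in C4-2B (0.00127). SPDEF fell too, with -0.77 in LNCaP (0.00224) and -0.85 in C4-2B (0.0146). So did GRHL2, with -0.58 in LNCaP (1.52e-05) and -0.55 in C4-2B (0.00338). Some of these calls rested on 1 pair of knockdown columns. Without columns 3 and 4, GATA2 in C4-2B (adjusted p = 0.0665), SPDEF in C4-2B (log2 change -0.27, 0.553) and SPDEF in LNCaP (0.127) were not called, and without columns 1 and 2, GRHL2 in C4-2B (0.116) was not. SPDEF in C4-2B was also not called without siMOCOS replicate 3 (0.0519). ETV1 rose in LNCaP siMOCOS cells with TG (log2 change 0.38, SE 0.114, adjusted p = 0.0113), with overlap between the groups. That call was lost with the GC and length correction (adjusted p = 0.187), without columns 3 and 4 (0.149), without siMOCOS TG replicate 2 (0.0668) and in the fit of both lines (0.181). CREB3L4 was not called in LNCaP siMOCOS cells (log2 change -0.25, adjusted p = 0.109), but was called lower with the GC and length correction (0.0455), without columns 1 and 2 (0.0224), in the fit of both lines (0.0453), and without siMOCOS TG replicate 3 (0.0356), siMOCOS replicate 1 (0.0471) or siMOCOS replicate 2 (0.0495).

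FOXA1 had a log2 change with TG of 0.0067 in LNCaP siMOCOS cells (95% interval -0.24 to 0.25) and -0.0075 in C4-2B siMOCOS cells (-0.25 to 0.24), beside -0.47 and -0.61 in siCTRL cells of the same lines. The difference between the 2 TG responses was tested as the interaction of knockdown and TG. It was 0.47 in LNCaP (SE 0.159, unadjusted p = 0.00824, adjusted p = 0.503) and 0.61 in C4-2B (SE 0.159, unadjusted p = 0.00137, adjusted p = 0.207), and neither passed the adjusted threshold. By edgeR 0 of 7 members in LNCaP and 0 of 6 in C4-2B had a called interaction, where 0.00724% of genes in LNCaP and 0.0708% in C4-2B were called. DESeq2 and limma voom also called 0 in both lines. At an unadjusted p under 0.05 there were 3 members in LNCaP, which were FOXA1, SPDEF and GRHL2, and 1 in C4-2B, FOXA1. Over all genes tested, 918 of 13806 in LNCaP and 982 of 14127 in C4-2B were under that threshold. Without knockdown columns 3 and 4 the interaction of GRHL2 in LNCaP was called (log2 -0.57, adjusted p = 0.0162).

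**Figure D3:**
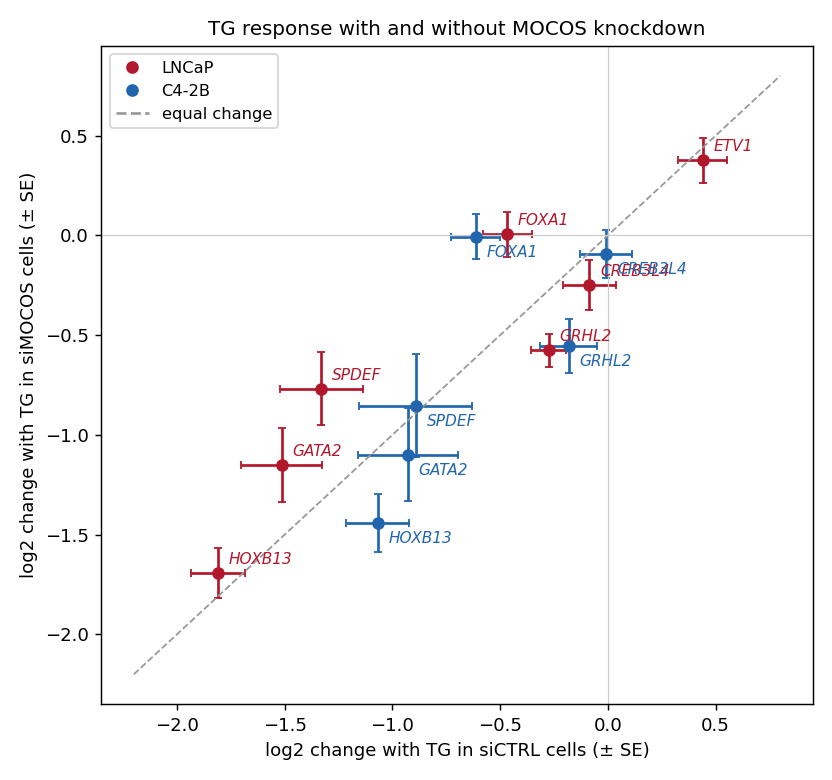
Log2 change with TG in siMOCOS cells (vertical, ± SE) against that in siCTRL cells (horizontal, ± SE), with 1 point per factor and line and a dashed line where both are equal. HOXB13, GATA2 and SPDEF are negative on both axes, whereas FOXA1 is negative in siCTRL cells and near 0 in siMOCOS cells; its interaction did not pass the adjusted threshold in either line.

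Of the 7 genes, ETV1 had the largest difference between the lines. LNCaP siCTRL libraries held 18612 ETV1 counts in all and C4-2B siCTRL libraries held 12, with 2 of those 4 libraries at 0. The ratio of the depth-scaled sums was 1610 (95% exact Poisson interval 922 to 3120, which covers counting error only). Of the 12 counts, 11 were in C4-2B siCTRL replicate 1, and without that library the ratio was 13500 against 1 count (interval 2420 to 533000), so its size is poorly known. Over all 16 C4-2B libraries there were 67 ETV1 counts, and the highest level was 0.614 CPM, in siCTRL replicate 1, while the lowest LNCaP level was 311 CPM. The libraries labelled C4-2B thus had almost no ETV1 RNA in any condition. Whether these cultures descend from the LNCaP cells used here was not tested. At this level in C4-2B no response of ETV1 to TG or knockdown could be resolved.

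In siCTRL cells without TG, 3 of 7 members were called different between LNCaP and C4-2B, where 41.2% of the 14628 genes tested were called in either direction, a share near that of the members. Besides ETV1, GRHL2 was lower in LNCaP, with 134 ± 4.83 CPM in LNCaP and 177 ± 26.1 CPM in C4-2B (SD, n = 4 each; log2 difference -0.40, SE 0.106, adjusted p = 0.00308), without overlap. FOXA1 was higher in LNCaP, with 478 ± 80 CPM in LNCaP and 386 ± 55.6 CPM in C4-2B (log2 difference 0.31, SE 0.111, adjusted p = 0.0256), with overlap. The FOXA1 call was lost without LNCaP siCTRL replicate 4 (adjusted p = 0.166), C4-2B siCTRL replicate 3 (0.158) or replicate 4 (0.0927), with DESeq2 size factors (0.0536) and with no filter (0.0886). HOXB13 averaged 242 ± 16.6 CPM in LNCaP and 247 ± 39 CPM in C4-2B and was not called (95% interval of the log2 difference -0.30 to 0.24). SPDEF, GATA2 and CREB3L4 were not called either, with SPDEF at -0.47 (adjusted p = 0.101), which passed without C4-2B siCTRL replicate 1 (0.0182). With the GC and length correction the point estimates turned, to 0.17 for SPDEF (0.313) and 0.023 for GATA2 (0.916, against -0.31 uncorrected), so no direction is given for either.

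Of the differences in TG response between the lines, 1 of 7 members was called, where 0.848% of genes were called. HOXB13 fell further in LNCaP than in C4-2B (log2 difference -0.75, SE 0.186, adjusted p = 0.0441). The size of this difference lay between -0.814 and -0.64 in the 16 fits that left out 1 library, but the call was kept in 1 of them, without LNCaP siCTRL TG replicate 2, and lost in the other 15 (adjusted p up to 0.139). It was also lost with DESeq2 size factors (0.0708), with no filter (0.0881) and without the 6 libraries (0.699), and was kept with the GC and length correction (0.00106). GATA2 (log2 difference -0.59, SE 0.308, adjusted p = 0.566) and FOXA1 (log2 difference 0.14, SE 0.157, adjusted p = 0.909) were not called.

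For the response to knockdown, 0 of 7 members had a called difference between the lines without TG by edgeR, where 0.157% of genes were called, with 1 at an unadjusted p under 0.05 (FOXA1, 0.0323) and 0 called by DESeq2 or limma voom. With TG 0 of 7 were called by edgeR, where 0.431% of genes were called, with 4 at an unadjusted p under 0.05, which were HOXB13, GATA2, FOXA1 and ETV1, the last resting on its few counts in C4-2B. Of the 14628 genes tested, 1723 without TG and 2246 with TG had an unadjusted p under 0.05. HOXB13 came nearest (log2 difference 0.74, SE 0.186, adjusted p = 0.0574), and DESeq2 called it (adjusted p = 0.0165) while limma voom called 0. This difference uses the same siCTRL TG libraries as the difference in TG response. With edgeR it was called without C4-2B siMOCOS TG replicate 2 (0.0203), LNCaP siMOCOS TG replicate 3 (0.0296), LNCaP siCTRL TG replicate 2 (0.0389) or knockdown columns 3 and 4 (0.0492). The opposite directions of GATA2 under knockdown with TG, up in LNCaP and down in C4-2B by point estimate, did not pass as a difference (log2 difference 1.01, SE 0.309, adjusted p = 0.12), except without C4-2B siMOCOS TG replicate 2 (0.0427).

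Across the 8 groups, the order of levels set the TG groups apart for HOXB13 and GATA2 and the lines apart for ETV1. The 4 groups without TG held HOXB13 at means of 215 to 253 CPM and each overlapped the next. Below a gap came C4-2B siCTRL TG (118 ± 10.9 CPM; SD, n = 4), and below another the remaining 3 TG groups, which overlapped at means of 68.9 to 77.4 CPM. For GATA2 the 4 groups without TG overlapped in a chain at means of 104 to 129 CPM and the 4 TG groups in another at 36.3 to 67.8 CPM. SPDEF formed a chain of overlapping groups from C4-2B siMOCOS (30.6 ± 8.99 CPM) to C4-2B siCTRL TG (12.3 ± 0.955 CPM), with LNCaP siCTRL TG alone below it (6.51 ± 0.51 CPM; SD, n = 4 each). GRHL2 had 5 groups with means of 134 to 177 CPM, each overlapping the next, above LNCaP siCTRL TG, C4-2B siMOCOS TG and LNCaP siMOCOS TG at means of 90.8 to 110 CPM. CREB3L4 showed no gap anywhere from C4-2B siMOCOS (79.2 ± 12.6 CPM) to LNCaP siMOCOS TG (52.4 ± 6.53 CPM), and all 4 C4-2B means lay above all 4 LNCaP means. Within LNCaP the ETV1 levels ran in the order siMOCOS TG (491 ± 42.7 CPM), siCTRL TG (445 ± 28.6 CPM), siMOCOS (392 ± 79.9 CPM) and siCTRL (328 ± 21 CPM), each overlapping the next.

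The genes around these factors moved in several directions with TG in siCTRL cells. Over all genes tested, 24.6% were called higher and 25.1% lower in LNCaP, and 21.2% and 19.3% in C4-2B. The counts of the lists below stand beside these shares. Of 12 luminal epithelial markers, all tested, 8 were lower and 1 higher in LNCaP (median log2 change -1.01), and 7 lower and 0 higher in C4-2B (median -0.983). TMPRSS2, an androgen-driven protease, had 77.1 ± 8.7 CPM in LNCaP siCTRL TG and 608 ± 22.2 CPM in LNCaP siCTRL (SD, n = 4 each; log2 change -2.98, SE 0.111, adjusted p = 2.21e-12). KLK3, the gene of prostate-specific antigen, fell, with log2 changes of -2.13 in LNCaP and -1.51 in C4-2B. KRT18 rose in LNCaP (0.77, adjusted p = 3.38e-05), and KRT8, CDH1 and FOLH1 were called in neither line.

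Of 20 other luminal and epithelial transcription factors, 14 were tested in LNCaP, with 4 higher and 3 lower, and 17 in C4-2B, with 6 higher and 4 lower. GRHL1, a relative of GRHL2, rose in both lines, with 30.6 ± 1.29 CPM in LNCaP siCTRL TG and 16 ± 0.624 CPM in LNCaP siCTRL (log2 change 0.94, SE 0.101, adjusted p = 5.72e-07), and a log2 change of 1.35 in C4-2B. Of 16 epithelial genes known as targets of GRHL2, 9 were lower and 1 higher in LNCaP (median -0.41), and 6 lower and 2 higher in C4-2B (median -0.282). The splicing regulators ESRP1 and ESRP2 went opposite ways: ESRP1 rose by 2.11 in LNCaP and 1.68 in C4-2B, and ESRP2 fell, with log2 changes of -1.90 and -1.36. The protease gene ST14 fell in both, with -1.32 in LNCaP and -1.62 in C4-2B. With TG, the knockdown went with 7 of the 16 GRHL2 targets higher and 0 lower in LNCaP, where GRHL2 itself was lower. In C4-2B 3 were higher and 0 lower, with GRHL2 lower too. Over all genes 11.7% were called higher and 10.2% lower in LNCaP, and 9.21% and 7.6% in C4-2B. Without TG, where GRHL2 was not called, the knockdown went with 3 targets higher and 1 lower in LNCaP. In C4-2B it went with 4 higher and 0 lower. Without TG 6% of all genes were called higher and 9.73% lower in LNCaP, and 9.09% and 8.14% in C4-2B.

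Of 8 genes of the CREB3 and ATF6 family and their proteases, 6 were tested, and 3 rose and 1 fell in each line. CREB3 rose by a log2 change of 1.27 in LNCaP and 0.96 in C4-2B, and ATF6, a sensor of ER stress, by 0.93 and 1.08. CREB3L2 rose in both lines (adjusted p = 0.0106 in LNCaP and 0.0427 in C4-2B), in contrast to the CREB3L4 intervals above. Of 20 coregulators of the androgen receptor, 19 were tested, with 6 higher and 5 lower in LNCaP and 5 higher and 3 lower in C4-2B. These counts are near the shares over all genes. The corepressor TLE3 fell in both, with -1.53 in LNCaP and -1.33 in C4-2B, and the acetyltransferase CREBBP rose, with 0.88 and 0.70.

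Of 17 other ETS factors, 14 were tested in LNCaP, with 4 higher and 3 lower, and 15 in C4-2B, with 1 higher and 4 lower. ELK3 fell in both lines, with log2 changes of -1.46 in LNCaP and -1.66 in C4-2B, and ETS1 rose from a low level, with 10.1 ± 0.671 CPM in LNCaP siCTRL TG and 2.71 ± 0.373 CPM in LNCaP siCTRL (SD, n = 4 each). Of 7 GATA family genes, 2 were tested in LNCaP and none was called, while in C4-2B 3 were tested and GATA3 rose at under 1 CPM in both groups. Of 12 basal and mesenchymal markers, 3 were higher and 2 lower among 7 tested in LNCaP, and 2 higher and 1 lower among 6 in C4-2B. Of 12 neuroendocrine markers, 4 were tested in each line, with 1 lower in LNCaP (ENO2) and 1 higher in C4-2B (SYP). Of the stromal, immune, endothelial and blood markers, 3 were tested, with 2 higher and 1 lower in LNCaP and 2 higher and 0 lower in C4-2B. Of 4 genes of handling stress, 3 were tested, and 2 rose and 1 fell in each line. Their part in the changes of the 7 factors was not tested.

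**Figure D4:**
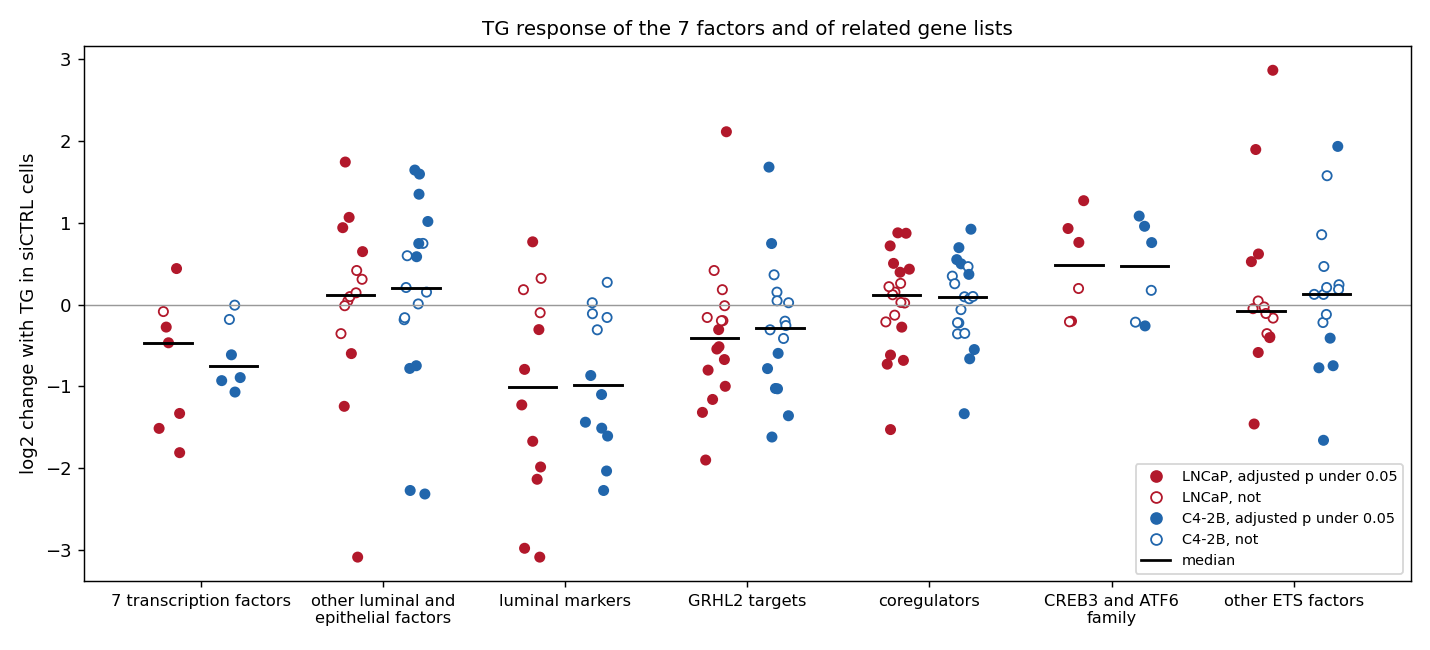
Log2 change with TG in siCTRL cells for the 7 factors and 6 lists of related genes, with 1 point per gene tested, LNCaP left of C4-2B; filled points passed an adjusted p under 0.05 and bars are medians. Luminal markers have medians of -1.01 in LNCaP and -0.983 in C4-2B, whereas the medians of the other factors, coregulators and ETS factors lie between -0.0795 and 0.208.

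Genes with the most similar patterns were sought over all 32 libraries by Pearson r of log2 CPM after each line's mean was subtracted, among 10007 genes of at least 5 CPM on average in each line. The points share library, depth and composition and include libraries with and without TG, so r is a description. HOXB13 was nearest to SLC6A8 (0.982), UBTF (0.976) and ZC3H4 (0.975), and GATA2 to HYAL2 (0.967), SLC35B2 (0.949) and EPN3 (0.948). SPDEF was nearest to FGFRL1 (0.947), PIP5K1C (0.946) and FAM127A (0.944), and GRHL2 to IKZF3 (0.928), AMER1 (0.916) and AIF1L (0.901). FOXA1 was nearest to PITPNA (0.925), TDRD7 (0.909) and NAA50 (0.908). CREB3L4 had looser matches in RILPL2 (0.804), BLVRA (0.756) and DDC (0.743), and ETV1, near 0 in one line, in TRMT5 (0.696), GTF2E1 (0.691) and HIBCH (0.685). In the 16 LNCaP libraries alone, a choice made after the values were seen, ETV1 was nearest to NOTCH2NL (0.971), MAP1B (0.968) and ALCAM (0.963).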

How the data were processed

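The table the authors deposited covers 29744 genes in 32 libraries. Its values are expected counts, estimates that are mostly not whole numbers, which the authors scaled by length (per the file's own title) and did not divide by library size. Salmon 1.5.2, STAR 2.6.1d, cutadapt 3.4, Trim Galore 0.6.7 and FastQC 0.11.9 are listed, with build hg38 and no roles, in the submitters' processing notes. No source used here gives the annotation or the use of strand in counting. Counts were rounded. Library totals are given in the report, and their size limits the precision of low genes such as ETV1 in C4-2B.

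Each line was fitted with edgeR 4.0.16 (R 4.3.3; filterByExpr by group, TMM, quasi-likelihood F-test, 12 residual degrees of freedom), and both lines together for differences between them (24). P-values were adjusted by Benjamini-Hochberg over all genes tested, and genes under 0.05 were called. Every adjusted p comes from this test unless another is named. SE is the absolute unshrunken log2 change over the square root of F. Fits were tested on simulated data. Loci and overlaps are from GENCODE v29. Named genes are all 7 members, MOCOS, up to 3 called genes per list with the smallest adjusted p, and the 3 nearest genes per member; other list genes were named after their values were seen. Members and lists were chosen with earlier results of these data known. Alternatives were DESeq2 1.42.0, limma 3.58.1 voom, DESeq2 size factors, no filter, 1 fit of both lines, leaving out libraries or knockdown columns, the replicate number as a block, and a GC and length correction added after the data were seen. That correction also takes out differences between groups that follow GC content or length. Of the tested genes, 89.1% had a GC value.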

Additional observations from a re-analysis of the deposited data

Results flagged for a closer look

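Among 56 sets of 4 libraries (7 factors in 8 groups), 8 held a library far from the other 3 by Dixon's test at the 95% level, which chance does in about 1 set in 20. FOXA1 was 582 CPM in LNCaP siMOCOS replicate 1. HOXB13 was 188 CPM in C4-2B siCTRL replicate 1, below the other controls, and without that library the fall of HOXB13 with TG in C4-2B was still called. GRHL2 was 216 CPM in C4-2B siCTRL replicate 2, 197 CPM in C4-2B siCTRL TG replicate 3 and 141 CPM in LNCaP siCTRL replicate 1. ETV1 was 0.614 CPM in C4-2B siCTRL replicate 1, 0.522 CPM in C4-2B siMOCOS replicate 1 and 402 CPM in LNCaP siCTRL TG replicate 2. C4-2B siCTRL replicate 1 appears for 2 genes here and was the library with the most negative correlation with GC content (-0.528), whose part in these levels was not tested.

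The TG response of HOXB13 differed between the lines, with a log2 difference of -0.75 (LNCaP minus C4-2B, edgeR adjusted p = 0.0441), a call that 15 of 16 fits without 1 library did not keep.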

How the results depend on the processing

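No direction of a called member reversed. Of 782 member changes under other settings, 731 kept their side of the threshold, 36 lost a call and 15 gained one; of 1016 with 1 library left out, 976, 32 and 8 did. Causes were not tested. Fits without some libraries have fewer to test, and their counts over all genes went down in some and up in others, as given below.

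Members called, with TG in siCTRL cells of C4-2B: 4, and 2 without the 6 libraries that stood apart. With TG in siMOCOS cells, without knockdown columns 3 and 4: 3 against 5 in LNCaP and 2 against 4 in C4-2B. Knockdown with TG gave 4 in LNCaP, 1 without the 6 libraries, 2 without columns 1 and 2, 2 in 1 fit of both lines and 2 to 4 with 1 library left out; in C4-2B it gave 3, and 1 without the 6 libraries. Knockdown without TG gave 0 in LNCaP, 1 with the GC and length correction, 2 without columns 1 and 2 and 1 without columns 3 and 4; in C4-2B it gave 1, 2 with the correction, 0 without columns 1 and 2 and 0 to 1 with 1 library left out. The interaction in LNCaP gave 1 without columns 3 and 4, against 0. The line difference in TG response gave 1, and 0 with DESeq2 size factors, with no filter and without the 6 libraries, and 0 to 1 with 1 library left out. That in knockdown response with TG gave 0, 1 with DESeq2, 1 without columns 3 and 4 and 0 to 2 with 1 library left out.

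Same-numbered siCTRL libraries with and without TG did not deviate together (r from -0.348 to 0.152 in C4-2B and -0.0658 to 0.21 in LNCaP), so the number was not taken to pair them. With it as a replicate block, 6 members were called with TG in LNCaP and 4 in C4-2B, 3 between the lines and 0 for the line difference in TG response. The 3 were not the same genes as without it: FOXA1 was no longer called (log2 0.29, adjusted p = 0.101) and SPDEF was (-0.45, 0.027).

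Counts over all genes moved by more than 1.5 times in some settings. Without the 6 libraries, 2900 against 5725 genes were called with TG in C4-2B, 1290 against 2434 with knockdown and 1173 against 2375 with knockdown under TG there, and 1596 against 3025 in LNCaP under TG. Without columns 3 and 4 the knockdown calls were 4414 and, under TG, 4431 in C4-2B, and 3368 (against 2173) and 5524 in LNCaP. Interaction calls in C4-2B were 10, against 85 with DESeq2, 6 with voom, 6 with no filter, 87 with the correction, 44 in 1 fit of both lines, 0 without the 6 libraries, 1 without columns 1 and 2 and 212 without columns 3 and 4. In LNCaP they were 1, against 55 with DESeq2, 19 with the correction, 0 without the 6 libraries, 19 without columns 1 and 2 and 328 without columns 3 and 4. Line differences in TG response were 124, against 78 with no filter, 188 with DESeq2, 244 with the correction, 18 without the 6 libraries, 45 with the replicate block and 77 to 113 with 1 library left out. Those in knockdown response were 23 without TG (5 to 204 elsewhere) and 63 with TG (4 to 306 elsewhere).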
